A study of Mus musculus with 40 samples.

Results

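The mouse repeat annotation holds a class named scRNA, for small cytoplasmic RNA, and 5869 of the 835636 repeat copies in the deposited table belonged to it. The copies were taken by their class and family label alone, with no measured value involved, and all 5869 carried the same repeat name, BC1_Mm. The libraries came from YUMM1.7, a mouse melanoma cell line derived from a C57BL/6 mouse, and all groups share this origin. The line had been grown as tumours in mice and handed on from tumour to tumour. Cells from each dissociated tumour were cultured for 1 to 3 passages before polyadenylated RNA was sequenced. The 40 libraries fall into 11 groups, named as the labels name them. In the order of passage these are the starting YUMM1.7 cells (3 cultures), F0 (4 libraries), F1 (4), F2 (5), N2.1 (5), N2.2 (3), N2.3 (3), Balb/c-1 (4), Balb/c-2 (3), a second set of libraries from those 3 tumours, called here Balb/c-2 rep2 (3), and CBA (3). Letters mark different tumours of a passage, but both Balb/c-2 sets come from the same 3 tumours. All groups descend from 1 cell line, so the tumours are parallel branches of 1 lineage and not independent cancers. The labels give neither the age nor the sex of the mice.

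BC1 RNA is a short noncoding RNA of rodents, made by RNA polymerase III from an internal promoter whose elements are called the A box and the B box. Its 5′ part derives from an alanine tRNA, its middle is rich in adenine, and its 3′ part is unique to it. It is best known from neurons, where it lies in dendrites and represses translation. The ID family of SINEs, short retroposed repeats, derives from the same RNA, so a copy annotated as BC1_Mm can be the gene itself or a fragment that was inserted elsewhere.

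The sequences show how far the label carries. A single copy, chr7:144914470-144914623 on the plus strand of mm10, covers the Bc1 gene, 154 bases in all. Transcript sequence of the same build was at hand for 511 copies in exons, and the 510 besides Bc1 were aligned to the Bc1 sequence. Their median identity over the aligned stretch was 70.0% (quartiles 66.7% and 74.0%), and most were fragments: 471 began within the first 20 bases of Bc1, and only 7 reached base 140. The gene is printed below beside 4 noncoding exon copies, chosen to show the range from a near copy to diverged ones, each in the orientation of BC1. Capitals mark letters that match the A box pattern TNGCTCAGTNG or the B box pattern GGTTCNNNCC, searched on both strands with no overlap between the 2 patterns.
Bc1: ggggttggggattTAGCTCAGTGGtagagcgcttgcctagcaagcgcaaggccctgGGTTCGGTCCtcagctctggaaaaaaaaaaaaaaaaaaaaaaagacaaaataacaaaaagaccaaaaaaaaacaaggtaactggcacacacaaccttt
Elp6: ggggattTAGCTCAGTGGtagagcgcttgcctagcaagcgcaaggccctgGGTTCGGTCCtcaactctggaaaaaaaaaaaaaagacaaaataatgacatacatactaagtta
Gm8615: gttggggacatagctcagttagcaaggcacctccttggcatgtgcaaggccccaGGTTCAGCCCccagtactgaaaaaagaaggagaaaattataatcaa
Tra2a: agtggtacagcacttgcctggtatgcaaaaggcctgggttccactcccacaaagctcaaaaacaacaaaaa
Nktr: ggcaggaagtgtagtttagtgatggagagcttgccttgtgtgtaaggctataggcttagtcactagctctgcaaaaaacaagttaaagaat
The Elp6 copy (chr9:110309738-110309850, minus strand) was 93.3% identical to Bc1 and keeps both box patterns. The Gm8615 copy (chr5:149155185-149155284, plus strand) was 71.7% identical and keeps the B box letters. The Tra2a copy (chr6:49261772-49261842, plus strand, 73.3% identical) and the Nktr copy (chr9:121734816-121734906, plus strand, 68.5% identical) hold neither pattern. Among all 511 exon copies the A box letters were found in 106 (20.7%) and the B box letters in 94 (18.4%). In 32851 windows of 92 bases from RefSeq promoters of the same build the shares were 0.149% and 1.22%. The copies bear the BC1_Mm label for their likeness to BC1, and Bc1 holds both patterns. Higher shares than in such windows therefore follow from the choice of copies. A match describes letters, not a promoter in use.

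Most copies were short and had few reads. The length ran from 11 to 194 bases with a median of 92, and 55 copies were at least 150 bases long. Reads fell on 5856 copies in at least 1 library, but a single library had reads on only 990 to 1884 of them, and 214 copies had reads in every library. The deposited values are whole read counts divided by 1 factor per library, called signal here, so that 1 read is worth 0.659 to 1.51 signal. The class took 1.06% to 1.34% of all repeat signal in a library, and rested on 17139 to 33269 reads per library, out of 1280522 to 2976730 reads in repeat copies.

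Signal and copies sat in different places. Introns held 4240 copies (72.2%) but 13.4% of the class signal, and intergenic sequence held 984 copies (16.8%) with 2.87%. The 239 copies in 3′ UTRs were 4.07% of the copies and held 73.2% of the signal. Noncoding exons held 374 copies with 5.08% of the signal, 5′ UTRs 14 copies with 2.91% and coding exons 18 copies with 2.62%. The Bc1 gene itself was 1 of the noncoding exon copies. The SINE/ID class, which is close in size and origin, had 6249 copies, a median length of 75 bases and a median share of 1.45% of repeat signal per library. In exons lay 11% of scRNA copies, against 9.70% of SINE/ID copies and 7.30% of all copies. Mean signal per copy was 3.83 for scRNA, 4.31 for SINE/ID and 2.24 for all copies. Reads on a copy inside an exon can come from the messenger or noncoding transcript that contains it, and the libraries do not tell such reads from transcripts of the copy's own. Which library was strand-specific is not given, so reads of the 2 strands cannot be told apart either. Of the 3′ UTR copies with a sequence, 105 lay in the BC1 orientation with 48.4% of their signal and 110 in the opposite one with 51.6%.

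**Figure D1:**
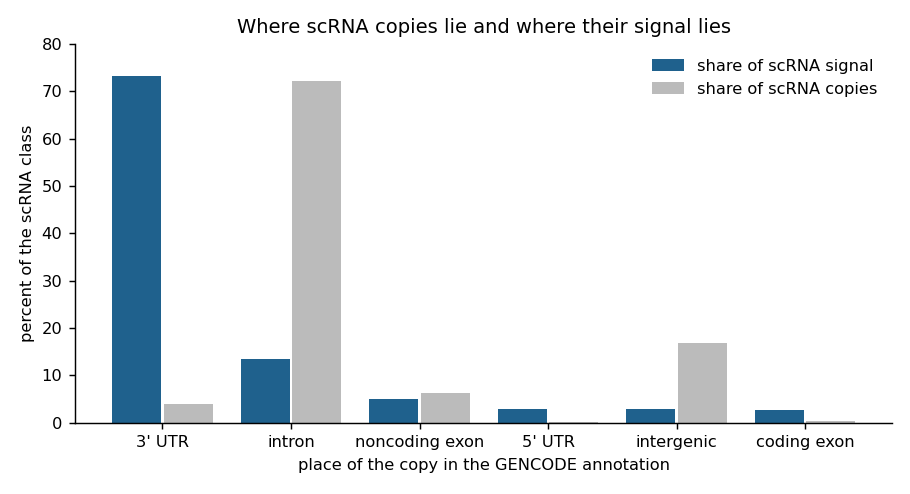
Share of summed signal (blue bars) and share of copies (grey bars) of the scRNA class (percent, y axis) by the place of the copy in the gene annotation (x axis). Introns hold 72.2% of the copies and 13.4% of the signal, while 3′ UTRs hold 4.07% of the copies and 73.2% of the signal.

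The signal was concentrated in few copies: 25 copies made up 50% of it and 12 copies 35%. Levels are given as mean signal over all 40 libraries, and per 100 bases where copies are compared. The 4 strongest all lay in 3′ UTRs. The copy in Dpysl3 (chr18:43322573-43322704), a cytoskeletal protein of migrating neurons, had a mean of 1257, or 952 per 100 bases. That in Tor1aip2 (chr1:156052348-156052453), a partner of torsin ATPases at the nuclear envelope, had 1111, or 1048 per 100 bases. That in Aldh18a1 (chr19:40550872-40550953), the enzyme that starts proline synthesis, had 1037 on 82 bases and was thereby the densest of these 12, at 1265 per 100 bases. The copy in Rab12 (chr17:66494900-66495039), a small GTPase of membrane traffic, had 849, or 607 per 100 bases. Next came 3′ UTR copies in Cdkn2aipnl (chr11:51976534-51976634) with 552, in the palmitoyltransferase Zdhhc20 (chr14:57833992-57834092) with 498, in the ubiquitin ligase Rnf213 (chr11:119486807-119486885) with 483 and in the mRNA cleavage factor Cpsf2 (chr12:102003375-102003467) with 457. A 5′ UTR copy in Fam111a (chr19:12583902-12583983), a protease that restricts viral replication, had 434, and 61 of its 82 bases were in the UTR. A copy that touches a coding exon of the splicing factor Luc7l3 (chr11:94297147-94297271) had 408, with 21 of its 125 bases in the exon. The tumour suppressor Nf2 (chr11:4767642-4767723) with 385 and the riboflavin kinase Rfk (chr19:17400189-17400270) with 383, both in 3′ UTRs, closed the 12. The copies differed in how steady they were. Zdhhc20 ranged from 366 to 724 over the 40 libraries and Rab12 from 590 to 1139, whereas Rnf213 ranged from 47.4 to 1808 and Dpysl3 from 53.0 to 2225. The low end of Dpysl3 was the single library N2.3 C, and the next lowest, N2.2 A, had 665.

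The Bc1 gene was covered at a modest level in every group. Its mean signal was 81.1, the 56th place in the class, or 52.6 per 100 bases, and it had 40 to 214 reads per library. Polyadenylated RNA was sequenced, and the longest run of adenines in Bc1 is 23 bases. How fully such libraries capture this short RNA polymerase III transcript is not given. The level of Bc1 beside copies in messengers is therefore uncertain. The mean ± SD was 85.2 ± 35.1 for YUMM1.7 cells, 66.8 ± 18.7 for F0, 81.6 ± 40.7 for F1 and 59.7 ± 23.9 for F2. N2.1 averaged 81.7 ± 25.6, N2.2 62.7 ± 23.4 and N2.3 111 ± 54.2. Balb/c-1 averaged 73.7 ± 23.6, Balb/c-2 82.2 ± 29.1, its repeat set 154 ± 12.9, and CBA 54.5 ± 11.2. Between most groups the levels overlapped, and none of the steps F0 against YUMM1.7 cells, F2 against F0, N2.1 against F2, N2.3 against N2.1, Balb/c-1 against N2.3 and Balb/c-2 against Balb/c-1 passed the test, with log2 fold changes of -0.31, -0.19, 0.45, 0.39, -0.51 and 0.15 and limma adjusted p-values between 0.369 and 0.930. CBA and the repeat libraries of Balb/c-2 stood apart from each other. The repeat libraries had the highest mean of all groups, and the CBA values lay within the range of F2. The signal was 49.2, 67.4 and 46.9 in CBA, against 140, 157 and 165 in Balb/c-2 rep2, with no overlap (log2 fold change -1.50, SE 0.39, limma adjusted p = 0.0175). Against the first libraries of these tumours, which had 58.0, 74.0 and 115, the difference was -0.55 (SE 0.39, adjusted p = 0.395). The CBA and Balb/c-2 rep2 libraries carry flow cell names and the first ones do not, so every comparison of CBA with the first libraries crosses that divide. The repeat libraries were themselves above the first ones by 0.95 (SE 0.39, limma unadjusted p = 0.0195, adjusted p = 0.488), with higher values for all 3 tumours. That fit does not use the pairing by tumour. With the tumour as a block over the 2 sets alone, the SE was 0.17 (limma unadjusted p = 0.000416, adjusted p = 0.0695). The call against the repeat set was lost without CBA A (adjusted p = 0.0660), CBA C (0.0785) or Balb/c-2 rep2 C (0.0743). It was also lost with no filter on low copies (0.115) and with the intron share as a covariate (-1.69, adjusted p = 0.0661), and kept with TMM scaling, edgeR and DESeq2 (-1.65 to -1.60).

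**Figure D2:**
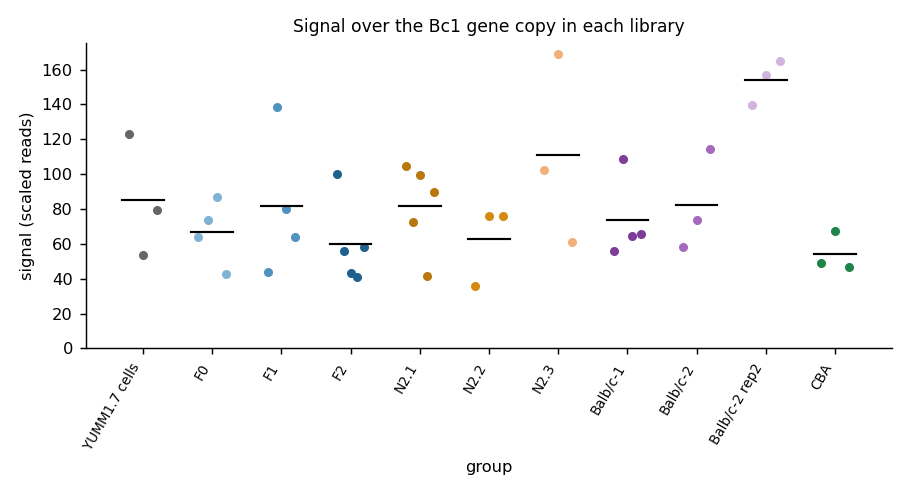
Signal on the Bc1 gene copy (y axis, whole reads divided by the library factor) in each library (points), by group (x axis), with the group mean as a horizontal line. The 3 Balb/c-2 rep2 libraries lie at 140 to 165, and the 3 CBA libraries at 46.9 to 67.4.

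Few of the exon copies with sequence were near copies of Bc1, and copies in introns and between genes were not aligned. Of the 510 other exon copies with sequence, 21 aligned over at least 60 bases with at least 85% identity, and 12 of these had a mean signal under 1. In the whole class only 996 of 5869 copies had a mean of at least 1, so low signal was not particular to near copies. The strongest near copy was the 3′ UTR copy of Ppp1r15b (chr1:133137951-133138040), part of a phosphatase that reverses translational arrest, 93.0% identical and with a mean of 152.7. How reads with several best places were treated is not given, so the levels of such near copies are uncertain.

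For tests between groups, each copy with a mean signal of at least 5 entered a limma fit on log2(signal + 1) over all 33215 such copies of the whole table, and a copy is called changed at a Benjamini-Hochberg adjusted p under 0.05. This scale understates fold changes of low copies. Of the scRNA copies 309 entered, holding 89.4% of the class signal, and 5560 did not. They comprised 140 in 3′ UTRs, 99 in introns, 43 in noncoding exons, 14 intergenic, 8 in coding exons and 5 in 5′ UTRs, and 114 of them had a mean under 10. Where a host gene is compared, its other repeat copies were summed and fitted the same way. In bulk libraries, fewer cells of a type and less RNA per cell cannot be told apart. Libraries of 1 tumour each measure the spread between tumours of a passage, and the 3 libraries of YUMM1.7 cells the spread between cultures, which may be technical.

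As deposited, the summed signal of the class moved by at most 0.25 on the log2 scale. It averaged 21413 ± 1014 in CBA and 25415 ± 501 in Balb/c-2 rep2 (SD, n = 3 each), the widest step among the 8 comparisons (log2 fold change -0.25, SE 0.05). Balb/c-1 averaged 24800 ± 879 against 22112 ± 114 in N2.3 (0.16, SE 0.04). N2.1 averaged 23191 ± 105 against 21013 ± 1041 in F2 (0.14, SE 0.04), a direction that turned with TMM scaling (-0.08). The other steps were between -0.07 and 0.09, and of these the one of Balb/c-2 rep2 against Balb/c-2 (-0.05) also turned with TMM scaling (0.03). The sum of the copies outside exons went the other way than the whole sum in 4 comparisons, with 0.28 for F0 against YUMM1.7 cells, -0.33 for F2 against F0, -0.23 in Balb/c-1 set against N2.3, and 0.39 where CBA was set against Balb/c-2 rep2. Over the 1089 repeat names summed in this way, the medians were 0.27, -0.27, -0.15 and 0.36 in that order. For whole sums the median over 1219 names was 0.32 in N2.1 against F2 and 0.11 in CBA against Balb/c-2 rep2. Over all 33215 copies the median log2 fold change in N2.1 against F2 was 0.26, and 0.06 with TMM scaling. CBA against Balb/c-2 rep2 had medians of 0.20, and 0.06 with TMM scaling. In Balb/c-1 against N2.3 they were -0.17, and -0.02 with TMM scaling. Changes of single copies below are best read relative to these shifts.

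The first growth as tumours and the passages up to F2 left the class without a called copy. In F0 against YUMM1.7 cells 0 of 309 copies were called, and also 0 with edgeR and DESeq2, and 0.0% of all copies were called. At an unadjusted p under 0.05 were 22 members (7.12%), against 8.59% of all copies. The lowest p belonged to a copy in C330007P06Rik on the X chromosome, with 137 in F0 and 227 in YUMM1.7 cells on average (log2 fold change -0.73, SE 0.17, adjusted p = 0.245). In F2 against F0 again 0 were called by limma, 0 by edgeR and 1 by DESeq2, against 0.0391% of all copies by limma. At an unadjusted p under 0.05 were 22 (7.12%), against 9.40% of all copies. The copy in Fam102b averaged 352 in F2 and 179 in F0 (0.95, SE 0.21, adjusted p = 0.0674). This copy was past the threshold without F2 E (0.0400), with TMM scaling (0.0399) and with DESeq2 (0.00853).

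N2.1 against F2 had more called copies of the class than the other 7 comparisons, except with no filter on low copies, where it had 18, against 22 in Balb/c-1 set against N2.3. Both of its groups had 5 libraries, and each other comparison had a smaller group, so the counts do not rank the sizes of the changes. Of the 309 copies 39 (12.6%) were called, 30 higher and 9 lower in N2.1, where 9.7% of all copies were called, 7.34% higher and 2.36% lower. With TMM scaling the split was 16 higher and 16 lower, and over all copies it was 1345 higher and 1399 lower. The median log2 fold change was 0.21 for the members and 0.26 for all copies. The higher copies lay in 3′ UTRs (16), introns (6), noncoding exons (4), coding exons (2) and intergenic sequence (2), and the lower ones in 3′ UTRs (6), noncoding exons (2) and an intron (1). Intronic signal differed between these groups as well. Copies of all repeat classes in introns held 24.8 ± 2.28% of repeat signal in N2.1 and 18.9 ± 4.32% in F2 (SD, n = 5 each), and the scRNA copies in introns summed to 3576 ± 395 in N2.1 and 2516 ± 702 in F2. With the share over all classes as a covariate 20 of the 39 calls were kept and all 39 kept their sign, while over all copies 1147 were called, against 3222 without the covariate. Of the 39, 23 held whichever single library was left out.

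The Tra2a copy printed above lies in a noncoding exon of a gene for a splicing regulator. It had 66.3, 37.8, 35.3, 59.2 and 37.6 in N2.1, against 16.4, 6.56, 8.43, 11.5 and 11.8 in F2, without overlap (log2 fold change 2.02, SE 0.34, adjusted p = 7.04e-05). The other copies within Tra2a rose alike (2.09). The Nktr copy, in a noncoding exon of a gene for a cyclophilin-domain protein, had 22.7, 9.21, 19.7, 24.7 and 23.3 in N2.1, against 3.65, 2.19, 4.21, 0 and 2.73 in F2 (2.68, SE 0.46, adjusted p = 8.49e-05). Here the other copies of the gene rose by 0.61, less than the copy itself. F2 was low for this copy among the early groups, since F0 had 7.15 to 11.3 and YUMM1.7 cells had 2.90 to 12.1. The Luc7l3 copy at the coding exon averaged 517 ± 85.3 in N2.1 and 328 ± 43.7 in F2 (SD, n = 5 each; 0.65, SE 0.16, adjusted p = 0.00764). The 3′ UTR copy of the helicase Ddx10 (chr9:53098813-53098902) averaged 152 ± 27.7 in N2.1 and 94.2 ± 11.5 in F2 (0.67, adjusted p = 0.00887). That of Mov10 (chr3:104794866-104794954), an RNA helicase that restrains retroelements, averaged 208 ± 49.0 in N2.1 and 95.3 ± 30.5 in F2 (1.14, adjusted p = 0.00756).

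The 3′ UTR copy of Mcmbp (chr7:128697516-128697615), which binds the replicative helicase, had 47.0, 93.1, 77.9, 66.3 and 73.0 in N2.1, against 24.6, 23.0, 39.0, 15.3 and 27.3 in F2 (1.46, SE 0.24, adjusted p = 6.38e-05), with 0.18 for the other copies of the gene. That of Polh (chr17:46171894-46171976), a polymerase that copies past DNA damage, had 234 to 306 in N2.1 and 126 to 173 in F2 (0.90, adjusted p = 0.00233), with 1.16 for the gene's other copies. A pair of copies in the 3′ UTR of Tacc1, a microtubule-associated coiled-coil protein, rose together, by 1.14 (chr8:25155597-25155706) and 1.26 (chr8:25157305-25157390), with adjusted p-values of 0.000569 and 0.00082, and the gene's other copies rose by 0.77. They share a transcript and are not separate evidence. The kinesin subunit Kif3a (chr11:53601866-53601990, 1.07), the protease Ddi2 (chr4:141679000-141679113, 0.93) and Ppp1r15b (0.84) had 3′ UTR copies that rose as well, with adjusted p-values of 0.00255, 0.0106 and 0.00216. Luc7l3, Ddx10 and Ddi2 were not called with TMM scaling (adjusted p = 0.0718 to 0.135), edgeR or DESeq2, nor Mov10 with edgeR (0.0527). With no filter on low copies the calls of Ddx10 (limma adjusted p = 0.123), Kif3a (0.282) and Ddi2 (0.374) were lost.

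Intron and intergenic copies rose as well. The intron copy in Pdlim7 (chr13:55500363-55500443), an actin-associated adaptor, averaged 52.1 ± 19.7 in N2.1 and 13.9 ± 11.6 in F2 (2.16, SE 0.41, adjusted p = 0.000356), and the other copies of Pdlim7 rose by 1.99. The intron copy in Tmpo (chr10:91153793-91153888), which encodes proteins of the nuclear lamina, averaged 75.9 ± 9.47 in N2.1 and 29.1 ± 14 in F2 (1.48, adjusted p = 0.000609). That in Zfp207 (chr11:80401824-80401917), a spindle-associated zinc finger protein, averaged 25.4 ± 11.1 in N2.1 and 8.14 ± 5.31 in F2 (1.72, adjusted p = 0.00223). Intergenic copies on chromosome 2 rose by 1.94 (chr2:83667603-83667677, adjusted p = 0.00709) and 1.23 (chr2:84595546-84595653, adjusted p = 0.00708). With the intron share as a covariate none of these 5 was called (adjusted p = 0.0569 to 0.132), and the changes were then 1.40 for Pdlim7, 0.82 for Tmpo, 1.15 for Zfp207, 1.89 and 1.00. With no filter the calls of Tmpo (limma adjusted p = 0.0555), Zfp207 (0.184) and both intergenic copies (0.180 and 0.341) were lost. The first intergenic copy was also lost with edgeR (adjusted p = 0.0509). A noncoding exon copy of Gm20756 (chr6:25955864-25955954) had 45 reads over the 5 N2.1 libraries and 1 read over the 5 F2 libraries, a ratio of 41.1 with a 95% counting interval of 7.01 to 1659. It also had no reads in YUMM1.7 cells and F1, and 6.24 to 15.9 in Balb/c-1. The libraries did not all follow this, since N2.1 C had 1.04, near the 0.956 of F2 D. F0 D had 2.90, N2.3 C had 0 and Balb/c-2 rep2 C had 1.51.

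Of the 5 lower copies that held, 3 lay in a 3′ UTR with a part of their bases only and 1 in an intron. The copy at the 3′ UTR of Med21 (chr6:146650584-146650709), a Mediator subunit, had 10.1, 3.07, 7.28, 7.07 and 9.03 in N2.1, against 37.4, 54.7, 41.1, 31.6 and 33.6 in F2 (-2.34, SE 0.31, adjusted p = 1.83e-06), with 77 of its 126 bases in the UTR. The copy at Alkbh6 (chr7:30314302-30314451), of the AlkB family of dioxygenases, had 0.840, 1.02, 3.12, 0 and 0.752 in N2.1, against 12.8, 19.7, 17.9, 35.4 and 15.4 in F2 (-3.37, SE 0.52, adjusted p = 1.80e-05), with 3 of its 150 bases in the UTR. The copy at Eif2b3 (chr4:117086846-117086940), a subunit of a translation initiation factor, had 7 of its 95 bases in the UTR and averaged 2.16 ± 2.05 in N2.1 and 13.2 ± 4.81 in F2 (-2.38, adjusted p = 0.00115). For these 3 genes the summed other copies had log2 fold changes of 0.53, 0.44 and 0.92, none of them called. The intron copy in the calcium channel gene Cacna1a (chr8:84594964-84595080) averaged 1.52 ± 2.93 in N2.1 and 11.6 ± 8.95 in F2 (-2.55, adjusted p = 0.00580), and the gene's other copies fell by 1.76. It was at 0 in every library of N2.2, N2.3, Balb/c-2, Balb/c-2 rep2 and CBA. The Bloc1s3 copy (chr7:19506196-19506291), wholly in the 3′ UTR of a subunit of a complex that builds melanosomes, averaged 24.2 ± 8.36 in N2.1 and 47.5 ± 11.6 in F2 (-0.98, adjusted p = 0.0131). Cacna1a (0.0693) and Bloc1s3 (0.229) were not called with the intron share as a covariate, nor Cacna1a with DESeq2 (0.0961). Bloc1s3 was also lost with no filter (limma adjusted p = 0.418).

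**Figure D3:**
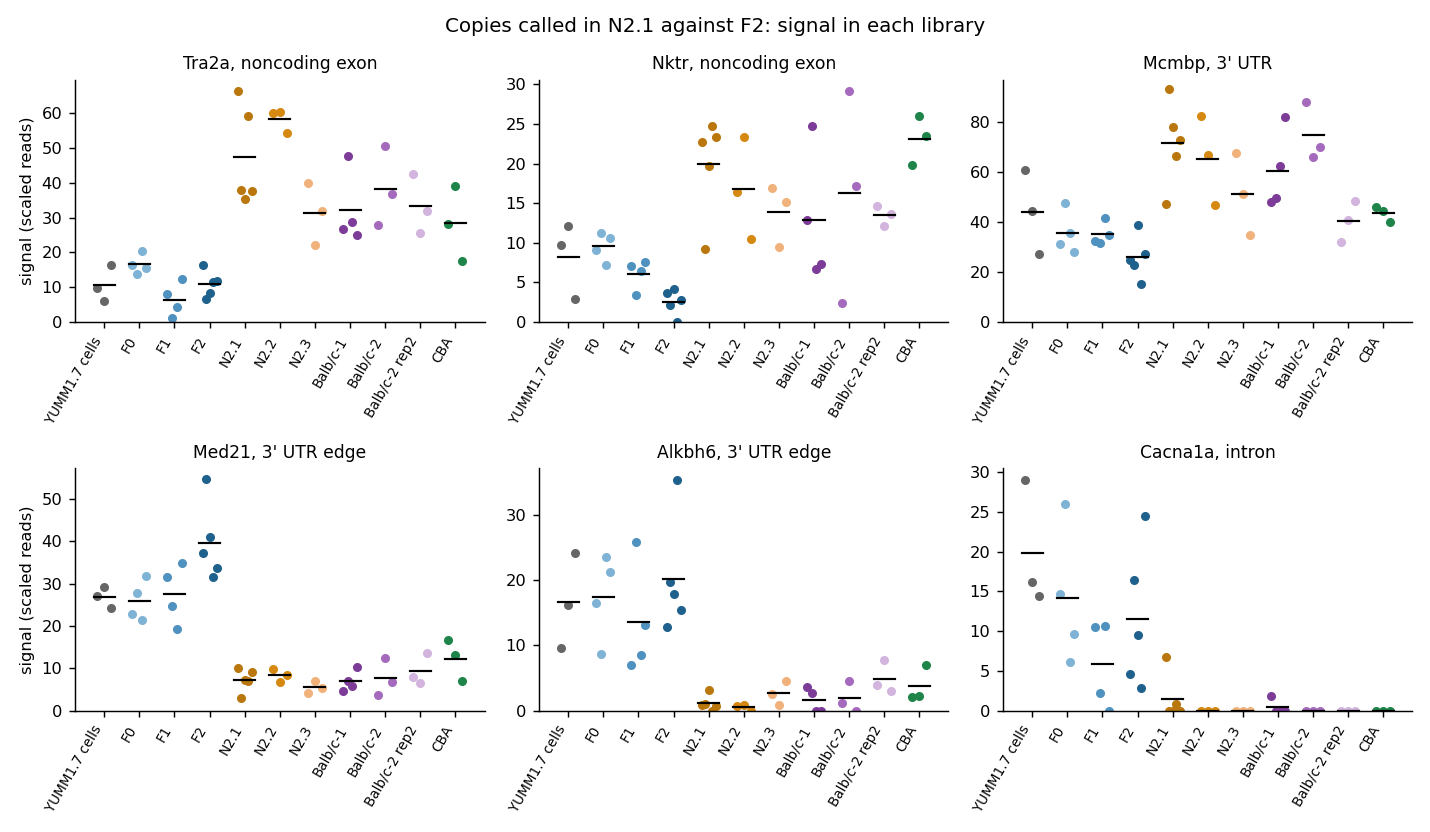
Signal (y axis, whole reads divided by the library factor) of 6 copies called in N2.1 against F2, in each library (points) by group (x axis), with the group mean as a horizontal line. Tra2a, Nktr and Mcmbp are higher in N2.1 than in F2, and Med21, Alkbh6 and Cacna1a lower, and for Med21 the highest N2.1 library had 10.1 and the lowest F2 library 31.6.

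The other 16 calls rested on particular libraries. The call was lost without F2 D for Tbx3os1 (chr5:119580292-119580387, -1.65; 0.0686 without it), a noncoding gene opposite the transcription factor Tbx3, and without F2 C for Gm8615 (-0.70; 0.0798). Without F2 D or N2.1 D it was lost for the second 3′ UTR copy of Cpsf2 (chr12:102005337-102005413, 0.82; 0.0793 and 0.0573), and without F2 B or N2.1 E for Nlrc5, the activator of MHC class I genes (chr8:94526732-94526800, 2.13; 0.0901 and 0.0547). Adjusted p-values reached 0.0773 for Nkapd1 (chr9:50606542-50606687, 0.69; without F2 C, N2.1 B or N2.1 D) and 0.122 for Mmgt1 (chrX:56586497-56586627, 0.82; without F2 D, N2.1 C or N2.1 D). They reached 0.110 for a second Tor1aip2 copy (chr1:156067815-156067904, 0.70; without F2 B, F2 C, F2 E or N2.1 B) and 0.0767 for Apol6 (chr15:77051423-77051526, 2.15; without F2 B, F2 C, F2 E, N2.1 A or N2.1 E). Dusp11 (0.47) and Gm49336 (chr14:60226199-60226308, 0.93) were lost without F2 A, F2 B, N2.1 A, N2.1 B or N2.1 D, with up to 0.102 and 0.109. The intron copies of Mdm4 (chr1:133008832-133008911, 1.54), Lpgat1 (chr1:191777335-191777445, 1.61) and Raph1 (chr1:60491664-60491764, 1.62) rested on more libraries. Mdm4 reached 0.102 without F2 B, C or D or N2.1 A or E, Lpgat1 0.131 without F2 B, D or E or any N2.1 library but B, and Raph1 0.120 without F2 B or D or any N2.1 library. The 3′ UTR copies of Pgm2l1 (chr7:100277333-100277442, -1.01), Ubr2 (chr17:46928669-46928752, -0.49) and Mbd5 (chr2:49259349-49259436, 0.84) were also of this kind. Pgm2l1 reached 0.195 without F2 B, C or E or N2.1 B, D or E, Ubr2 0.126 without F2 C, D or E or N2.1 B, C or E, and Mbd5 0.101 without A, C or E of either group. Of the called copies, 33 had a host gene whose other copies could be fitted. In 30 of these the other copies moved the same way, and for 15 the host sum was called too. Such counts are not given here for called copies of other classes, so they do not mark a trait of this class. The whole table also shifted upward in this comparison, and most of these calls were higher.

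**Figure D4:**
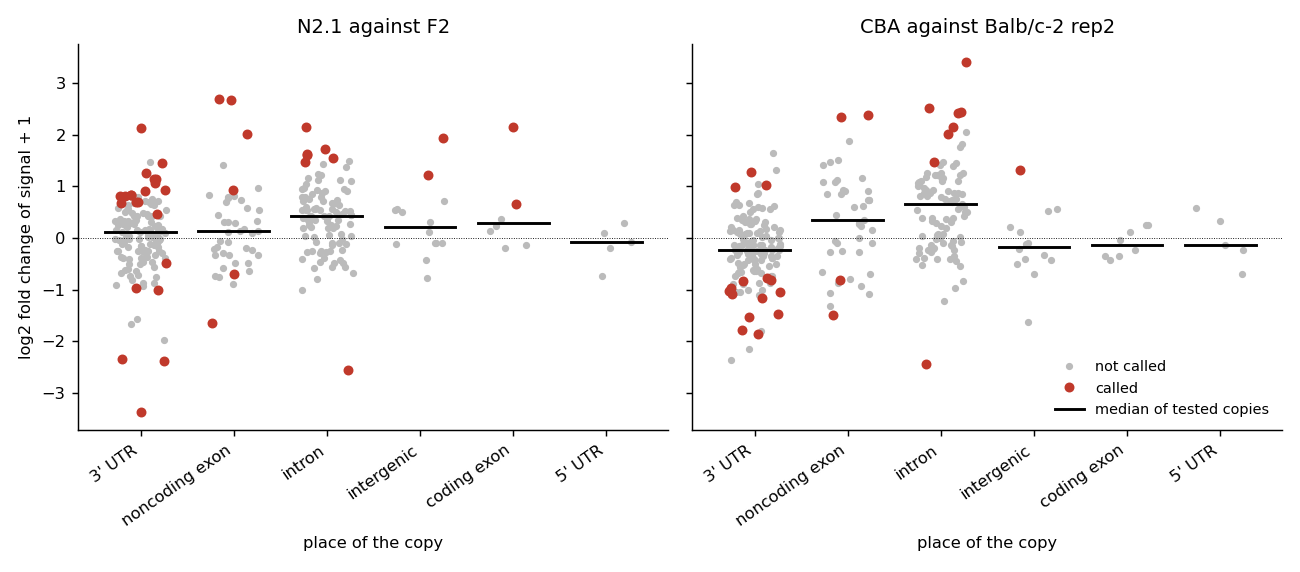
Log2 fold change of each tested scRNA copy (y axis) by its place in the gene annotation (x axis), for N2.1 against F2 and for CBA against Balb/c-2 rep2; called copies are red and the line is the median of a place. In CBA against Balb/c-2 rep2 the median is -0.23 for 3′ UTR copies and 0.66 for intron copies.

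From N2.1 to N2.3 few copies changed, and none of the calls held in every set of libraries. The 6 called copies (1.94%), 1 higher and 5 lower, compare with 1.4% of all copies, 0.726% higher and 0.677% lower. TMM scaling gave 1 higher and 2 lower, against 196 higher and 161 lower over all 33215 copies. The strongest copy of the class, in Dpysl3, had 1050, 719 and 53.0 in N2.3, against 1469, 798, 1490, 1886 and 1528 in N2.1 (-2.01, SE 0.44, adjusted p = 0.0113). The single low library N2.3 C carried the call, and without it the change was -0.67 (adjusted p = 0.277). The Lancl3 copy (chrX:9266448-9266580, -2.21) likewise had 0.668 without N2.3 C, and 0.0580 to 0.106 without N2.1 A, N2.1 C, N2.1 D or N2.1 E. The Tmpo intron copy, up in N2.1 against F2, had 31.3, 15.8 and 36.3 in N2.3, against 61.4 to 84.8 in N2.1 (-1.49, adjusted p = 0.0137, and 0.160 without N2.3 B), and the gene's other copies fell by 1.43. Since N2.1 enters both comparisons, the 2 results are not independent. The Fam111a 5′ UTR copy averaged 238 ± 55.7 in N2.3 (SD, n = 3) and 506 ± 154 in N2.1 (SD, n = 5) (-1.05, adjusted p = 0.0370, and 0.0681 to 0.156 without N2.1 C, N2.1 D, N2.1 E, N2.3 A or N2.3 C). An intron copy in Ccnb1 (chr13:100782775-100782842), the mitotic cyclin B1, averaged 5.74 ± 2.98 in N2.3 and 21.6 ± 4.52 in N2.1 (-1.81, adjusted p = 0.0457, and 0.0597 to 0.210 without N2.1 A, N2.1 C, N2.1 D, N2.1 E, N2.3 A or N2.3 B). The first Tacc1 copy averaged 171 ± 22.7 in N2.3 and 84.5 ± 24.6 in N2.1 (1.05, adjusted p = 0.0256, and 0.0618 to 0.113 without N2.1 C, N2.1 E, N2.3 A or N2.3 B). Leaving out N2.1 C or N2.1 E left 2 calls.

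In Balb/c-1 against N2.3 the calls included several of the strongest copies. Of 309 copies 11 (3.56%) were called, 7 higher and 4 lower, against 2.2% of all copies, 0.912% higher and 1.29% lower. TMM scaling gave 10 higher and 3 lower, against 500 higher and 281 lower over all 33215 copies. The Aldh18a1 copy had 1631, 1713, 1300 and 1007 in Balb/c-1, against 702, 696 and 649 in N2.3, without overlap (1.02, SE 0.23, adjusted p = 0.0107), and its gene's other copy rose by 1.09. An intergenic copy on the X chromosome (chrX:51115127-51115240) had 80.2, 39.7, 85.5 and 92.6 in Balb/c-1, against 22.9, 28.4 and 20.4 in N2.3 (1.54, adjusted p = 0.00470). The Tbx3os1 copy had 1 read in all in Balb/c-1, against 65 reads in N2.3, where its signal was 11.9, 19.7 and 19.7. It was thus 72.8-fold higher in N2.3, with a 95% counting interval of 12.6 to 2918 (-3.91 on the fitted scale, adjusted p = 9.51e-05). These 3 calls held whichever single library was left out. Fitted on the 2 groups alone, Tbx3os1 kept its call, and Aldh18a1 (adjusted p = 0.0613) and the X copy (0.0617) did not; the X copy was also lost with no filter (0.0699).

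The other 8 calls of that step were lost without N2.3 C, among other libraries. Without it, the adjusted p was 0.717 for Dpysl3 (1.62 with all libraries, 0.29 without N2.3 C), 0.389 for Cdkn2aipnl (0.89), 0.340 for Cpsf2 (0.65), 0.220 for an intron copy of the tropomyosin gene Tpm2 (chr4:43516538-43516634, -1.92) and 0.175 for Nf2 (0.56). It was 0.110 for the zinc finger gene Zfp354c (chr11:50812468-50812578, -2.63), 0.0979 for the nucleotidase Nt5c3b (chr11:100429454-100429533, 0.84) and 0.106 for Elavl1 (chr8:4286992-4287079, -1.70), an RNA-binding protein that stabilises mRNAs. Zfp354c and Nt5c3b depended on N2.3 C alone. Elavl1 was lost also without Balb/c-1 A (0.0508), Tpm2 without Balb/c-1 A or C or N2.3 A or B, and Nf2, Cdkn2aipnl, Cpsf2 and Dpysl3 without any single Balb/c-1 library. Nf2 was lost also without N2.3 A or N2.3 B. The count fell to 3 without N2.3 C, and to 6 without Balb/c-1 A or Balb/c-1 C. Balb/c-1 libraries were close to each other for Nt5c3b, at 365 to 422 against 166 to 263 in N2.3.

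Balb/c-2 against Balb/c-1 gave 0 called copies, and 0 with edgeR and DESeq2, where 0.0% of all copies were called. At an unadjusted p under 0.05 were 28 members (9.06%), against 10.6% of all copies. The intergenic X copy was lower by 1.13 on the log2 scale on average but missed the threshold (adjusted p = 0.142), and the Wdr35 copy was called (adjusted p = 0.0318) when Balb/c-2 B was left out. Balb/c-2 rep2 against Balb/c-2 sets 2 library sets of the same tumours side by side, and whether they came from the same culture or RNA is not given. It had 0 called copies, and 0 with edgeR and DESeq2, against 0.232% of all copies. At an unadjusted p under 0.05 were 36 members (11.7%), against 7.92% of all copies. With the tumour as a block over these 6 libraries, 0 members were called and 0.461% of all copies, with 50 members (16.2%) and 11.1% of all copies at an unadjusted p under 0.05. Without Balb/c-2 rep2 B 1 copy was called. The intron copies in Upf3b (-2.61, adjusted p = 0.106) and Pacsin2 (-2.27, adjusted p = 0.117) were among the widest apart between these library sets.

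CBA against Balb/c-2 rep2 was the other step with many changes. Of 309 copies 28 (9.06%) were called, 13 higher and 15 lower, where 5.93% of all copies were called, 3.39% higher and 2.54% lower. Place and direction went together: of the higher copies 7 lay in introns, 3 in 3′ UTRs, 2 in noncoding exons and 1 was intergenic, while of the lower ones 12 lay in 3′ UTRs, 2 in noncoding exons and 1 in an intron. The median log2 fold change was 0.66 over the 99 intron copies, -0.23 over the 140 in 3′ UTRs and 0.01 over all 309, against 0.20 over all repeat copies. Outside exons the class sum rose by 0.39, close to the median of 0.36 over all 1089 repeat names. The rise outside exons was thus not particular to this class. Calls and medians by place are not given over all repeat copies. Whether the split by place or the lower 3′ UTR median was particular to the class was therefore not tested. Copies of all repeat classes in introns held 25.9 ± 1.38% of repeat signal in CBA and 18.4 ± 0.949% in Balb/c-2 rep2 (SD, n = 3 each), and the scRNA copies in introns summed to 3576 ± 159 in CBA and 2580 ± 43.2 in Balb/c-2 rep2. With the share over all classes as a covariate 1 of the 28 calls was kept and all 28 kept their sign, while over all copies 252 were called, against 1970 without the covariate. The share does not overlap between the groups, so its part in the calls cannot be told apart from the groups. Of the 28 calls 15 were kept against the first Balb/c-2 libraries, where the direction was the same for all but Pacsin2 and Upf3b.

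Only 4 of these calls held whichever single library was left out. The first Tor1aip2 copy, among the strongest of the class, had 792, 917 and 633 in CBA, against 1928, 1490 and 1767 in Balb/c-2 rep2 (-1.15, SE 0.22, adjusted p = 0.00156), and the first Balb/c-2 libraries, with 2329, 1616 and 1811, gave -1.30 (adjusted p = 0.000124). The other copies of Tor1aip2 had 0.08, not called. The 3′ UTR copy of Mfap1b (chr2:121461010-121461155), a spliceosome-associated protein, had 7.32, 7.61 and 5.86 in CBA, against 22.6, 19.9 and 22.7 in Balb/c-2 rep2 (-1.52, SE 0.36, adjusted p = 0.00861; -2.47 against the first libraries). The intron copy in Acly (chr11:100502312-100502393), which makes acetyl-CoA for lipid synthesis, had 29.3, 31.5 and 27 in CBA, against 2.66, 7.74 and 4.54 in Balb/c-2 rep2 (2.43, SE 0.54, adjusted p = 0.00613), and the gene's other copies rose by 2.28. The intron copy in Kif22 (chr7:127028473-127028563), a motor protein bound to chromosomes, had 8.37, 6.52 and 16.4 in CBA and no reads in Balb/c-2 rep2, so it was at least 2.64-fold higher, taking 3 reads per library as the floor. Against the first libraries, with 0, 1.12 and 4.58, its fitted change was 2.23 (adjusted p = 0.0190). With the intron share as a covariate none of the 4 was called, with -0.88 for Tor1aip2, -1.61 for Mfap1b, 1.19 for Acly and 2.32 for Kif22 (adjusted p = 0.0562 to 0.313). Mfap1b and Acly were also lost with no filter (0.157 and 0.148), and Mfap1b on the 2 groups alone (0.0621).

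**Figure D5:**
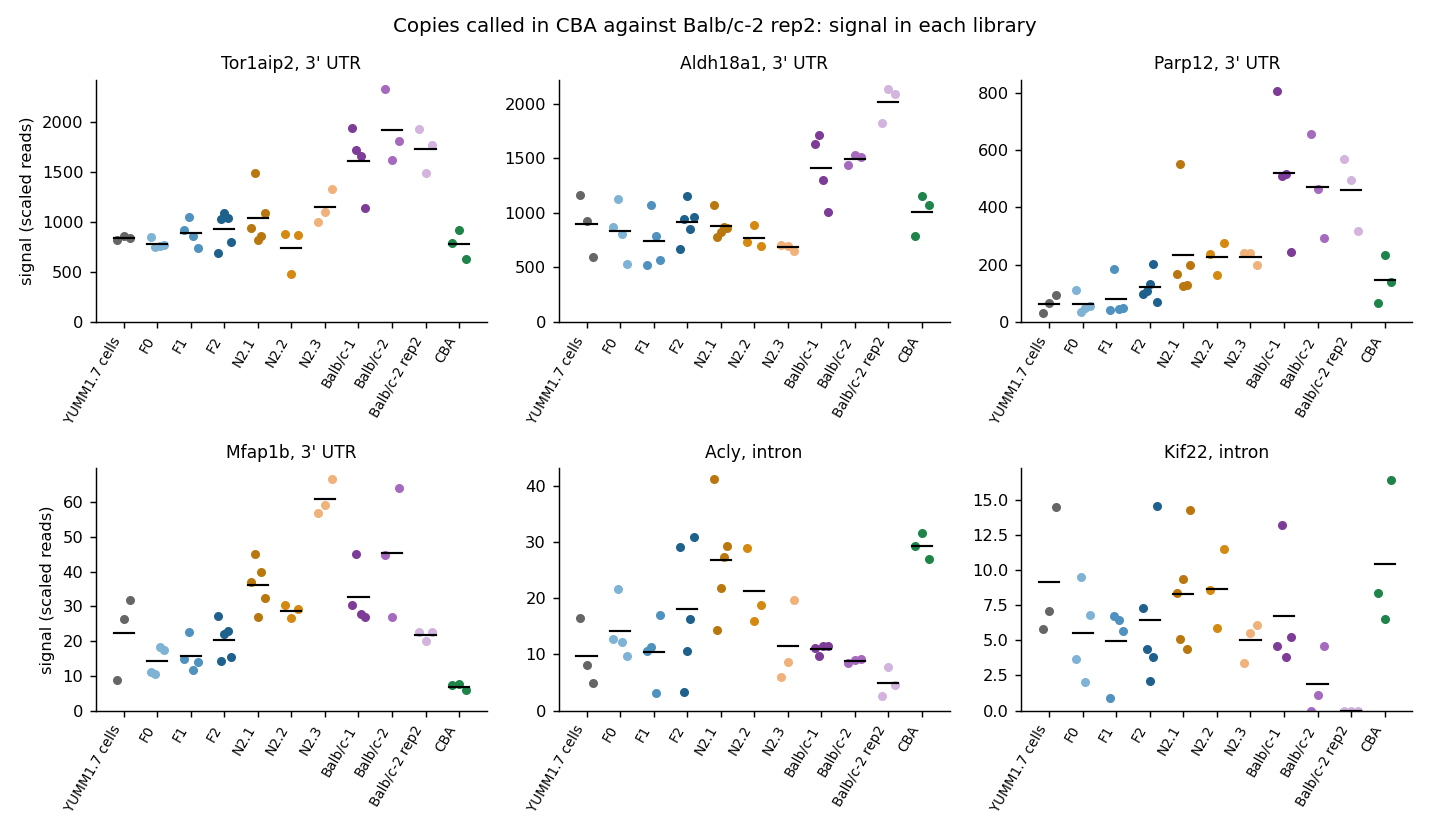
Signal (y axis, whole reads divided by the library factor) of 6 copies called in CBA against Balb/c-2 rep2, in each library (points) by group (x axis), with the group mean as a horizontal line. The copies in Tor1aip2, Aldh18a1, Parp12 and Mfap1b are lower in CBA, and those in Acly and Kif22 higher, and Kif22 is at 0 in all 3 Balb/c-2 rep2 libraries.

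The lower copies in CBA included further strong ones on 3′ UTRs. Aldh18a1 had 784, 1154 and 1073 in CBA, against 1822, 2138 and 2086 in Balb/c-2 rep2 (-1.02, adjusted p = 0.00861, and 0.0703 without CBA A; -0.59 and 0.104 against the first libraries). The copy in Parp12 (chr6:39087089-39087174), an interferon-induced ADP-ribosyltransferase, had 64.9, 234 and 141 in CBA, against 570, 496 and 318 in Balb/c-2 rep2 (-1.79, adjusted p = 0.0274, and 0.0615 to 0.186 without CBA A, CBA C, Balb/c-2 rep2 A or Balb/c-2 rep2 B). Rnf213 had 191, 840 and 314 in CBA, against 1425, 1808 and 939 in Balb/c-2 rep2 (-1.86, adjusted p = 0.0458, and 0.0748 to 0.227 without any library but CBA B; -1.43 and 0.102 against the first libraries). Along the passages both had their highest group means in the Balb/c groups: Parp12 had 243 to 807 in Balb/c-1 and 31.0 to 92.7 in YUMM1.7 cells, and Rnf213 had 276 to 1601 in Balb/c-1 and 110 to 165 in YUMM1.7 cells, with no test of that span. Dusp11 (chr6:85944545-85944677), a phosphatase that trims the 5′ ends of RNA polymerase III transcripts, averaged 194 ± 13.5 in CBA and 332 ± 20.4 in Balb/c-2 rep2 (SD, n = 3 each; -0.77, adjusted p = 0.0120, and 0.0588 without CBA C or 0.0526 without Balb/c-2 rep2 A). An intron copy in Brf2 (chr8:27126484-27126592), an RNA polymerase III initiation factor, averaged 2.51 ± 1.53 in CBA and 17.5 ± 5.91 in Balb/c-2 rep2 (-2.43, adjusted p = 0.00677, and 0.0521 without CBA C; -1.33 and 0.112 against the first libraries), and its gene's other copies fell by 1.84. Besides Bc1, the remaining lower copies were those in Micu3 (chr8:40385790-40385862, -1.04), a part of mitochondrial calcium uptake, Cdkn2aipnl (-0.97), Elavl1 (-1.47), Ddi2 (-1.08), Tmem167b (chr3:108558508-108558578, -0.84), Thap2 (chr10:115370015-115370136, -0.82) and Gm8615 (-0.81). Micu3 was lost without CBA A, CBA C or Balb/c-2 rep2 C (up to 0.202), and Cdkn2aipnl and Elavl1 without any CBA library or Balb/c-2 rep2 C (up to 0.166 and 0.207). Thap2 and Gm8615 were lost without any library but Balb/c-2 rep2 B (up to 0.119 and 0.182), Tmem167b without any but CBA B (up to 0.114) and Ddi2 without any of the 6 (up to 0.137). Against the first libraries the calls of Thap2 (adjusted p = 0.0588), Gm8615 (0.0835) and Tmem167b (-0.50; 0.154) were lost.

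The higher copies in CBA included 4 on genes known for a part in cell division. The 3′ UTR copy of Ccne2 (chr4:11203239-11203309), cyclin E2 of S-phase entry, had 299, 239 and 237 in CBA, against 98.5, 106 and 113 in Balb/c-2 rep2 (1.27, adjusted p = 0.0220, and 0.0568 to 0.0929 without CBA A, CBA C, Balb/c-2 rep2 A or Balb/c-2 rep2 C). The Ccnb1 intron copy had 31.4, 23.9 and 21.1 in CBA, against 6.65, 7.74 and 3.03 in Balb/c-2 rep2 (2.02, adjusted p = 0.0205, and 0.0509 to 0.132 without CBA A, CBA C or Balb/c-2 rep2 C). The 3′ UTR copy of Cenpa (chr5:30674537-30674621), the centromeric histone, averaged 193 ± 23.2 in CBA and 102 ± 39.2 in Balb/c-2 rep2 (0.99, adjusted p = 0.0202, and 0.0552 to 0.200 without CBA A, CBA C or Balb/c-2 rep2 C). A noncoding exon copy of Kif23 (chr9:61923515-61923596), a motor of cell division, averaged 23.8 ± 6.70 in CBA and 4.41 ± 3.13 in Balb/c-2 rep2 (2.34, adjusted p = 0.0246, and 0.0586 to 0.161 without any library but Balb/c-2 rep2 B). The other copies of Ccnb1, Cenpa and Kif23 rose by 1.81, 1.42 and 2.60. These 4 were put together after their values were seen, with no test as a group. Against the first libraries the call of Cenpa was lost (0.60, adjusted p = 0.141). The intergenic X copy had 79.5, 85.8 and 79.7 in CBA, against 31.9, 38.7 and 27.2 in Balb/c-2 rep2 (1.31, adjusted p = 0.0143, and 0.0799 without Balb/c-2 rep2 C). The other higher copies were those of Wdr35 (chr12:9028334-9028411, 1.03), Zdhhc1 (chr8:105483199-105483271, 1.47), Pacsin2 (chr15:83382133-83382208), Cox5a (chr9:57529268-57529338), Upf3b (chrX:37093900-37093964) and Stk38l (chr6:146773961-146774041), of which the last 4 had few reads in Balb/c-2 rep2. Wdr35 was lost without A or C of either set (up to 0.0908) and Zdhhc1 without any of the 6 libraries (up to 0.148). Pacsin2 was lost without any CBA library or Balb/c-2 rep2 A (up to 0.169), and Cox5a without CBA A, CBA C or Balb/c-2 rep2 C (up to 0.117). Upf3b was lost without any library but Balb/c-2 rep2 C (up to 0.117), and Stk38l without CBA A, CBA B or Balb/c-2 rep2 B (up to 0.0742). CBA over Balb/c-2 rep2, their read ratios with 95% counting intervals were 6.51 (1.97 to 33.9) for Pacsin2, 7.64 (2.35 to 39.4) for Cox5a, 9.34 (2.3 to 81.9) for Upf3b and 11 (2.76 to 96.0) for Stk38l. Against the first Balb/c-2 libraries the changes were -0.12 for Pacsin2, -0.17 for Upf3b, 0.58 for Stk38l (2.51 against the repeat set) and 1.05 for Cox5a (2.39 against the repeat set), none called (adjusted p = 0.275 to 0.929), nor was Zdhhc1 (0.0540).

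Per library left out, the number of calls in CBA against Balb/c-2 rep2 was 7 without CBA A, 9 without CBA C, 11 without Balb/c-2 rep2 C and 16 without Balb/c-2 rep2 A. Balb/c-2 rep2 B was the only library of the 6 from another flow cell and lane by its name. Without it 27 copies were called, 15 higher and 12 lower, and 21 of the 28 were kept. Bc1 then had a log2 fold change of -1.48 (adjusted p = 0.0355). Of the called copies, 20 had a host gene whose other copies could be fitted. In 18 these moved the same way, and for 12 the host sum was called too. Here as well, no such counts are given for other classes, so no trait of this class follows.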

How the data were processed

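Per the submitters' processing notes, reads were aligned to mm10, with HISAT2 2.0.5, StringTie 1.3.3b and featureCounts 1.5.0-p3 named. The sources used here do not give the repeat annotation, the treatment of reads with several places or the strand setting. The deposited signal per repeat copy is, from the values, whole reads divided by 1 factor per library: all values came out whole within 0.1 reads, though in 1 library of YUMM1.7 cells 1 read is worth so nearly 1 that the step could not be checked on its own. Members and lists were chosen with earlier results of these data known. Named copies were the 12 with the highest mean and every copy called in any comparison. Places come from GENCODE M21 (bedtools 2.31.1, at least 1 base, coding exon before 3′ UTR, 5′ UTR, noncoding exon and intron), and motif windows from RefSeq promoters. limma 3.58.1 (R 4.3.3) fitted log2(signal + 1) with 11 group means over 40 libraries, for copies with a mean of at least 5, with trended prior variances and Benjamini-Hochberg adjustment over all copies; tests were two-sided. edgeR 4.0.16 and DESeq2 1.42.0 were run on the recovered read counts as alternatives, as were TMM scaling, other filters and a pseudocount of 0.5. The planned test of summed signal per repeat name is given without a p, since the only name holds all members. Balb/c-2 rep2 and Balb/c-2 share tumours: deviations of same-lettered libraries correlated at 0.155 to 0.255, others at -0.195 to -0.0563. Counting intervals cover counting error only. The design text names sequencing in 2 rounds without assigning libraries; by their names, the Balb/c-2 rep2 and CBA libraries stand apart from the other groups. The main fit was also run on simulated reads with large known changes, for some of the comparisons only. Those data held no shift of intron share between groups, so they do not test the calls given here.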

Additional observations from a re-analysis of the deposited data

Results flagged for a closer look

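The Bc1 gene copy had 1 library far from the rest of its group in F2: F2 A had a signal of 100.25, against 41.1 to 58.2 in the other 4 F2 libraries, and its gap was 0.712 of the group's range. Over the 70 groups of libraries examined in this way, chance alone flags about 1 in 20. Without F2 A, the log2 fold change of Bc1 in N2.1 against F2 was 0.66 (limma adjusted p = 0.177), where all libraries gave 0.45 (adjusted p = 0.369).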

How the results depend on the processing

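Of the single called copies, only Pacsin2 (-0.12) and Upf3b (-0.17) changed sign, both in CBA against the first Balb/c-2 libraries, an alternative chosen after seeing the data. Over all alternatives, 2502 values of named copies kept their direction and their side of the threshold, 475 lost a call and 12 gained one. The 2502 include values that were not called in the main fit, so they do not give the share of calls kept. With edgeR, for instance, 24 of 39 calls were kept in N2.1 against F2 and 2 of 6 in N2.3 against N2.1. It kept 9 of 11 in Balb/c-1 against N2.3 and 15 of 28 in CBA against Balb/c-2 rep2. Counts of called copies moved by over 1.5 times in these cases. F2 against F0 had 1 with TMM, 1 with a mean of at least 1, 2 with no filter and 1 with DESeq2. N2.1 against F2 had 18 with no filter and 20 with the intron share as covariate. N2.3 against N2.1 had 3 with TMM, 15 with no filter and 2 with the 2 groups alone. Balb/c-1 against N2.3 had 22 with no filter, 7 with the letter as replicate block, 7 with the intron share and 1 with the 2 groups alone. Balb/c-2 against Balb/c-1 had 5 with no filter. CBA against Balb/c-2 rep2 had 5 with no filter, 2 with the intron share, 13 with the 2 groups alone and 17 with edgeR. Balb/c-2 rep2 against Balb/c-2 had 1 with no filter and 1 with the intron share. The causes were not tested. With no filter 5856 members among 831734 copies were tested, so those counts are out of other totals. Over all copies that setting called 1098 higher and 414 lower in N2.1 against F2. In Balb/c-1 against N2.3 it called 444 higher and 2418 lower. Without any single library, F0 against YUMM1.7 cells had 0 to 0 calls, F2 against F0 0 to 1, N2.1 against F2 30 to 42, N2.3 against N2.1 2 to 7, Balb/c-1 against N2.3 3 to 12, Balb/c-2 against Balb/c-1 0 to 1, CBA against Balb/c-2 rep2 7 to 27 and Balb/c-2 rep2 against Balb/c-2 0 to 1. In the same order, the class sum then changed by -0.09 to -0.03, 0.02 to 0.06, 0.12 to 0.16, -0.07 to -0.06, 0.14 to 0.18, 0.06 to 0.11, -0.29 to -0.23 and -0.07 to -0.03 on the log2 scale. With TMM the sums changed by -0.16, 0.15, -0.0829, -0.0430, 0.33, 0.0153, -0.41 and 0.0267, in the same order. For copies outside exons the sums changed by 0.28 for F0 against YUMM1.7 cells, -0.33 for F2 against F0, 0.49 for N2.1 against F2, -0.0539 for N2.3 against N2.1, -0.23 for Balb/c-1 against N2.3, 0.39 for CBA against Balb/c-2 rep2 and -0.18 for Balb/c-2 rep2 against Balb/c-2. The medians over all repeat names outside exons were 0.27, -0.27, 0.51, -0.00908, -0.15, 0.36 and -0.22 in that order. With the replicate block the counts were 39 for N2.1 against F2, 4 for N2.3 against N2.1, 28 for CBA against Balb/c-2 rep2 and 0 for Balb/c-2 rep2 against Balb/c-2; apart from the last comparison, the letters do not pair tumours. Depth limits the 114 tested copies with a mean under 10 most.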
